A study of Mus musculus with 28 samples.

Results

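The 10 genes described here belong to the interferon response and were followed in the epithelium of the mouse gastric corpus, the acid-secreting body of the stomach. They encode the small modifier ISG15 and its enzymes (Isg15, Uba7, Ube2l6, Herc6 and Usp18), the giant ubiquitin ligase RNF213 (Rnf213), and members and partners of the PARP family (Parp9, Dtx3l, Parp12 and Parp14). They were chosen by symbol from a table of 49492 gene symbols, with earlier results of these data known. All 10 were found there, had enough reads and were tested. The cells had been scraped by hand from the opened stomachs of villin-PPARD transgenic mice and of their WT littermates. The transgene encodes PPARD, a nuclear receptor for fatty acids and their derivatives, under the villin promoter, which is mainly used for expression in intestinal epithelium. Each genotype was sampled at 10 weeks of age (5 mice), 25 weeks (4 mice) and 55 weeks (5 mice), with 1 polyadenylated RNA library per mouse, 28 in all.

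ISG15 is a ubiquitin-like protein that cells make in response to interferon and attach to other proteins. UBA7 activates it, UBE2L6 carries it and a HERC-family ligase joins it to the substrate, which in the mouse is HERC6, while USP18 takes it off again and also restrains signalling from the type I interferon receptor. PARP enzymes attach ADP-ribose to proteins or nucleic acids: PARP9 works in a pair with the ubiquitin ligase DTX3L, and PARP12 and PARP14 add single ADP-ribose units. Interferon bound to its receptor activates transcription factors, STAT2 and IRF9 among them, which switch on such genes through a DNA sequence called the interferon-stimulated response element.

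Promoter sequences were looked up for the 10 genes, in RefSeq windows of 300 bases on GRCm38.p6 around each gene's RefSeq start, and 7 had one (Usp18, Parp9 and Parp14 did not). The Rnf213 window ends at position 119390148 of chromosome 11, before the GENCODE start of that gene at 119393100. The letters GAAA, any 2 bases and GAAA again, a strict core of the interferon-stimulated response element, were searched on both strands, overlapping matches included. Among the 7 windows they occurred only in that of Isg15, against 1131 of all 32851 windows (3.44%). The Isg15 window held 3 overlapping matches, beginning 78, 72 and 66 bases before the start and together forming the run in capitals. It is shown because Isg15 had the largest genotype difference of the 10 genes, beside the window of Uba7, which had the smallest and in which the letters were not found. The letters were also absent from the windows of Ube2l6, Herc6, Rnf213, Dtx3l and Parp12. At 10 weeks these genes had log2 differences of villin-PPARD over WT mice from 2.87 (Ube2l6) to 4.45 (Herc6). Sequences with a changed base were not searched, so absence of these letters does not show absence of a response element. The Uba7 window, for example, holds tttcactttt, which differs from the searched letters, read on the other strand, only in its last base.
Isg15 promoter, chr4:156200769-156201068, minus strand: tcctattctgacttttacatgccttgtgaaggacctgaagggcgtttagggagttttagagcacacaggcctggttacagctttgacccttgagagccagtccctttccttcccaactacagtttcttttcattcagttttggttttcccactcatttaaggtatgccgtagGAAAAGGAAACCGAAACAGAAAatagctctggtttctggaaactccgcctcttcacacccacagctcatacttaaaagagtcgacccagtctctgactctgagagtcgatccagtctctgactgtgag
Uba7 promoter, chr9:107975317-107975616, plus strand: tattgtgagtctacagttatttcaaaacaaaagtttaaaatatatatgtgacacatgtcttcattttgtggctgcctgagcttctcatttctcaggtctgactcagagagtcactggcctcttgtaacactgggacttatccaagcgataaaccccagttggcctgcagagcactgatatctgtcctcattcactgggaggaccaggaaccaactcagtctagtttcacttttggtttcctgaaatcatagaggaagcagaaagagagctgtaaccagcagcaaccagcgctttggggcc
The letters TTCNNNGAA, the core of the gamma-activated sequence, were found in 0 of the 7 windows, against 8.3% of all windows. These are matches of letters only, and the libraries hold no measurement of binding.

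The libraries held between 10982888 and 30891108 counts, and the 10 genes together had at least 1973 counts in each. They took 0.205% to 0.328% of all counts in villin-PPARD libraries and 0.018% to 0.0377% in WT libraries, so the 2 genotypes did not overlap in that share. Ppard itself averaged 109.5 ± 9.56 CPM in villin-PPARD and 74.1 ± 8.18 CPM in WT mice at 10 weeks (SD, n = 5 each), without overlap, where CPM is the count scaled by library size and TMM factor. At 25 weeks it ranged from 79.7 to 99.6 CPM in villin-PPARD and from 60.3 to 80.5 CPM in WT mice, and at 55 weeks from 84.7 to 102 CPM in villin-PPARD and from 72.2 to 85.6 CPM in WT mice, so the ranges overlapped at both ages. Summed markers of parietal cells had a median of 10861 CPM in villin-PPARD and 17257 CPM in WT mice at 10 weeks, and those of chief cells 60160 CPM in villin-PPARD and 126203 CPM in WT mice. At 55 weeks the parietal sum was 1087 CPM in villin-PPARD and 9078 CPM in WT mice, and the chief cell sum 639 CPM in villin-PPARD and 73528 CPM in WT mice, so transcripts that define corpus glands were scarce in villin-PPARD libraries of that age. The 4 epithelial markers Epcam, Krt8, Krt18 and Cdh1 summed to 6477 CPM or more in all villin-PPARD and 5512 CPM or more in all WT libraries. At 10 weeks their sum ranged from 8239 to 10985 CPM in villin-PPARD and from 5512 to 7479 CPM in WT mice, without overlap. Of the 4 markers, 3, 4 and 3 were called higher in villin-PPARD mice by edgeR at 10, 25 and 55 weeks. The counts of WT replicates 2 and 3 of 10 weeks lay much closer to each other than those of other mice of 1 group, so comparisons were also run with this pair as 1 sample. The deposited column names put libraries into a first and a second library group, and the 25-week and 55-week libraries lie in different ones.

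At 10 weeks all 10 genes were higher in villin-PPARD mice, from 4.9-fold for Uba7 to 60.8-fold for Isg15, and no villin-PPARD library overlapped a WT library for any of them. The median log2 difference was 3.14, against -0.03 over all 15812 genes tested. The background at this age was high: 17.9% of all genes were higher in villin-PPARD mice and 16.2% lower (edgeR quasi-likelihood test, Benjamini-Hochberg adjusted p under 0.05), and 14.5% had all villin-PPARD libraries above all WT libraries. The same held at 25 weeks, where all 10 genes were higher by a median log2 difference of 3.29 against -0.01 over all genes, with 21% of genes higher, 18.6% lower and 14.9% without overlap upwards. At 55 weeks all 10 were again higher without overlap, by a median of 2.6 against 0.03, with 31.7% of genes higher, 27.6% lower and 23.9% without overlap upwards.

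**Figure D1:**
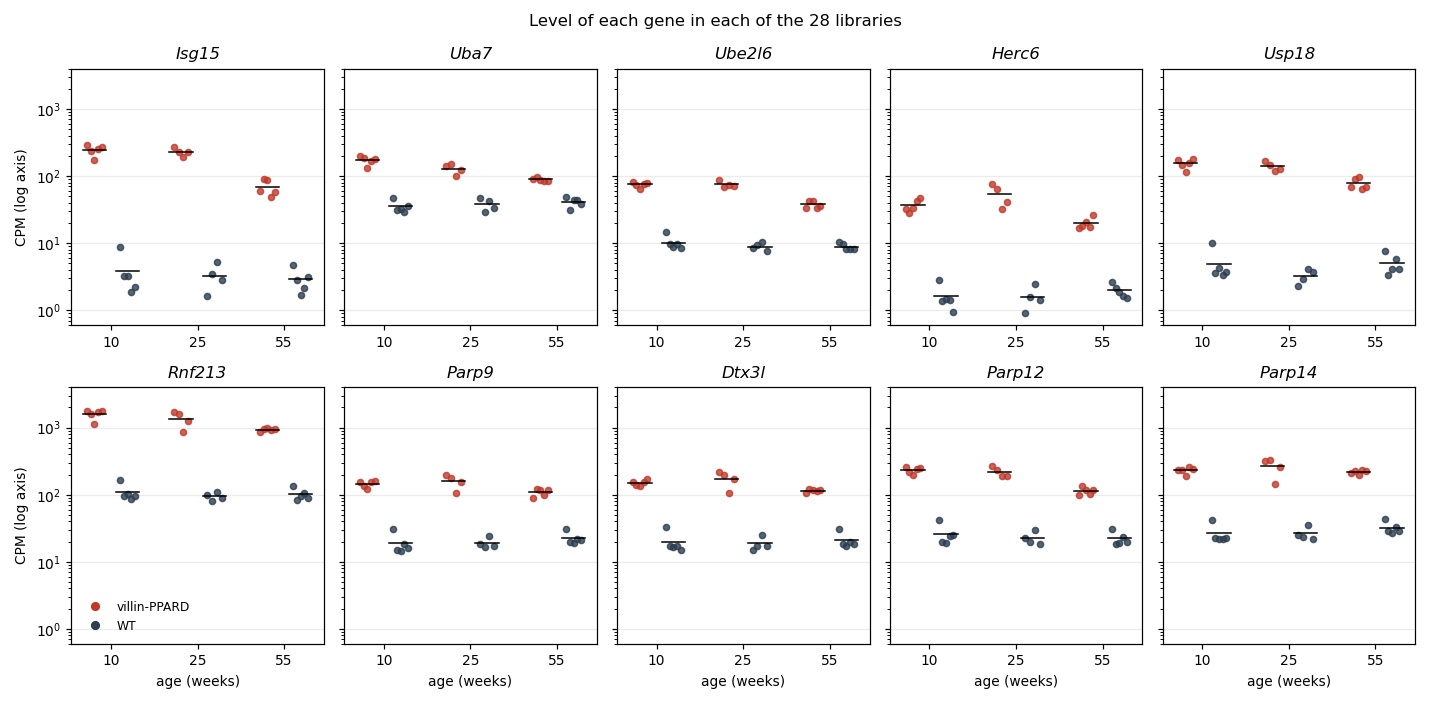
CPM (log axis) of each of the 10 genes in each of the 28 libraries, by age in weeks, with villin-PPARD (red) left of WT (dark) at each age; a point is 1 mouse and a bar the group mean. In every panel and at every age the villin-PPARD points lie above the WT points, with Isg15 between 49.2 and 286 CPM in villin-PPARD mice and between 1.65 and 8.87 CPM in WT mice.

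Isg15, the modifier itself (ENSMUSG00000035692, chromosome 4, 156199424 to 156200818, minus strand, GRCm38), had the widest separation. At 10 weeks it stood at 286, 238, 172, 257 and 267 CPM in villin-PPARD replicates 1 to 5, against 8.87, 3.18, 3.27, 1.88 and 2.18 CPM in WT replicates 1 to 5. The lowest villin-PPARD library was thus far above the highest WT library, replicate 1, which stood apart from its group. At 25 weeks Isg15 stood at 275, 227, 191 and 229 CPM in villin-PPARD mice, against 1.65, 3.44, 5.25 and 2.80 CPM in WT mice. At 55 weeks it stood at 60.4, 91.5, 87.6, 49.2 and 57.2 CPM in villin-PPARD mice, against 4.65, 2.81, 1.69, 2.13 and 3.14 CPM in WT mice. All 5 villin-PPARD libraries of 55 weeks lay below all 9 of the younger ages and still above every WT library. The log2 differences between genotypes were 5.93 ± 0.35 (SE), 6.11 ± 0.40 and 4.55 ± 0.35 at 10, 25 and 55 weeks, or 60.8-fold, 69.2-fold and 23.4-fold (edgeR adjusted p = 1.01e-12, 1.13e-11 and 2.67e-11). Isg15 moved most among the 10 with the library group at 10 weeks, with a log2 difference of 5.53 in the first group, which holds 3 mice of each genotype, and 7.03 in the second, which holds 2 of each. WT replicate 1, the highest WT library, belongs to the first, and without it the 10-week value over all other libraries was 6.51.

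Uba7, the enzyme that activates ISG15 at the start of conjugation (chromosome 9, 107975505 to 107984060, plus strand), had the smallest difference at each age. At 10 weeks it stood at 199.5, 185, 132, 167 and 177 CPM in villin-PPARD mice, against 47.7, 31.0, 32.5, 28.6 and 35.9 CPM in WT mice. At 55 weeks it stood at 90.9, 95.8, 88.5, 85.3 and 85.3 CPM in villin-PPARD mice, against 48.7, 31.0, 44.1, 43.9 and 37.7 CPM in WT mice. The genotypes did not overlap at either age, but the gap between them was narrower at 55 weeks. Between these ages, at 25 weeks, Uba7 averaged 128 ± 22.2 CPM in villin-PPARD and 38.1 ± 8.20 CPM in WT mice (SD, n = 4 each). The log2 differences were 2.29 ± 0.15 (SE), 1.75 ± 0.16 and 1.12 ± 0.14 at 10, 25 and 55 weeks, or 4.9-fold, 3.36-fold and 2.17-fold (edgeR adjusted p = 4.12e-13, 1.86e-09 and 1.08e-07).

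Ube2l6, the conjugating enzyme that carries ISG15 (chromosome 2, 84798828 to 84810335, plus strand), was higher by less than the modifier itself. It averaged 75.1 ± 6.61 CPM in villin-PPARD and 10.2 ± 2.51 CPM in WT mice at 10 weeks (SD, n = 5 each). At 25 weeks the means were 75.1 ± 8.18 CPM in villin-PPARD and 8.86 ± 1.20 CPM in WT mice (n = 4 each), and at 55 weeks 37.7 ± 4.97 CPM in villin-PPARD and 8.87 ± 1.08 CPM in WT mice (n = 5 each). The log2 differences were 2.87 ± 0.13 (SE), 3.08 ± 0.15 and 2.08 ± 0.13 at 10, 25 and 55 weeks (edgeR adjusted p = 8.09e-17, 5.75e-16 and 3.41e-14).

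Herc6, the ligase that joins ISG15 to its targets in the mouse (chromosome 6, 57581000 to 57664632, plus strand), was the gene with the fewest reads per length. At 10 weeks it stood at 31.8, 28.3, 33.0, 43.1 and 46.7 CPM in villin-PPARD mice, against 2.86, 1.38, 1.48, 1.41 and 0.924 CPM in WT mice. At 25 weeks it stood at 75.1, 65.1, 31.7 and 41.0 CPM in villin-PPARD mice, against 0.917, 1.56, 2.45 and 1.40 CPM in WT mice. Villin-PPARD replicates 1 and 2 of 25 weeks were higher than every library of 10 weeks, and replicates 3 and 4 lay within its range. At 55 weeks Herc6 averaged 19.7 ± 3.91 CPM in villin-PPARD and 1.97 ± 0.449 CPM in WT mice (SD, n = 5 each). The log2 differences were 4.45 ± 0.27 (SE), 5.04 ± 0.31 and 3.32 ± 0.27 at 10, 25 and 55 weeks (edgeR adjusted p = 7.29e-13, 1.49e-12 and 4.35e-11), and at 10 weeks 4.04 and 5.21 in the first and the second library group. Of the Herc6 exon bases 13.7% overlap another annotated gene, Gm45193 on the same strand, and reads there cannot be told apart.

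Usp18, the protease that removes ISG15 (chromosome 6, 121245906 to 121270917, plus strand), had the second largest difference at each age. At 10 weeks it stood at 175, 144, 115, 157 and 182 CPM in villin-PPARD mice, against 9.95, 3.55, 4.2, 3.39 and 3.70 CPM in WT mice. At 55 weeks it stood at 67.7, 91.0, 97.4, 65.1 and 69.4 CPM in villin-PPARD mice, against 7.71, 3.33, 4.10, 5.84 and 4.06 CPM in WT mice. All 5 villin-PPARD libraries of 55 weeks lay below all 5 of 10 weeks. At 25 weeks the means were 139.7 ± 21.9 CPM in villin-PPARD and 3.26 ± 0.789 CPM in WT mice (SD, n = 4 each). The log2 differences were 4.93 ± 0.26 (SE), 5.40 ± 0.31 and 3.93 ± 0.26 at 10, 25 and 55 weeks (edgeR adjusted p = 4.89e-14, 3.02e-13 and 7.20e-13), and at 10 weeks 4.63 and 5.59 in the first and the second library group.

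Rnf213, a very large ubiquitin ligase with an ATPase core (chromosome 11, 119393100 to 119487418, plus strand), took the most counts of the 10 genes in every group, and it is also the longest. It averaged 1591 ± 264 CPM in villin-PPARD and 109 ± 32.9 CPM in WT mice at 10 weeks (SD, n = 5 each). At 25 weeks the villin-PPARD libraries spread from 874 CPM in replicate 3 to 1687 CPM in replicate 1, against 81.9 to 111 CPM in WT mice. At 55 weeks the 5 villin-PPARD libraries lay close together, at 854, 961, 1001, 931 and 940.0 CPM, against 135, 82.8, 95, 107 and 89.9 CPM in WT mice. The log2 differences were 3.86 ± 0.19 (SE), 3.82 ± 0.21 and 3.20 ± 0.19 at 10, 25 and 55 weeks (edgeR adjusted p = 7.71e-16, 2.24e-14 and 1.24e-14). The kit does not mark strand, and 8.74% of the Rnf213 exon bases overlap another annotated gene, so reads there cannot be assigned to a strand.

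Parp9, whose protein binds ADP-ribose, and Dtx3l, the ubiquitin ligase that pairs with it, start close together on chromosome 16 on opposite strands (35938470 to 35972605, plus, and 35926511 to 35939151, minus). Their exons share 458 bases, 9.4% of those of Parp9 and 8% of those of Dtx3l, and reads there cannot be told apart. Parp9 averaged 146 ± 16.2 CPM in villin-PPARD and 19.0 ± 6.84 CPM in WT mice at 10 weeks, and Dtx3l averaged 151 ± 14.1 CPM in villin-PPARD and 19.8 ± 7.64 CPM in WT mice (SD, n = 5 each). The pair stayed near parity in every group: the ratio of Parp9 to Dtx3l reads within a library lay between 0.851 and 1.02 in villin-PPARD mice and between 0.875 and 1.22 in WT mice. Of all pairs among the 10 genes, these 2 had the most alike patterns over the 28 libraries, with a root mean square difference of 0.12 on the centred log2 scale. The genotype log2 differences of Parp9 were 2.93 ± 0.19 (SE), 3.07 ± 0.22 and 2.28 ± 0.19 at 10, 25 and 55 weeks (edgeR adjusted p = 1.28e-12, 9.50e-12 and 2.96e-11). Those of Dtx3l were 2.92 ± 0.21 (SE), 3.20 ± 0.24 and 2.44 ± 0.20 (edgeR adjusted p = 1.36e-11, 3.80e-11 and 6.65e-11).

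Parp12 and Parp14, which transfer single ADP-ribose units, had nearly the same CPM in villin-PPARD mice at 10 weeks, not corrected for gene length, and differed in CPM at 55 weeks. Parp12 (chromosome 6, 39086410 to 39118349, minus strand) stood at 263, 215, 194, 240.4 and 252 CPM in villin-PPARD mice of 10 weeks, against 42.2, 19.9, 19.3, 24.1 and 25.2 CPM in WT mice. At 55 weeks Parp12 stood at 99.6, 133, 118, 104 and 116 CPM in villin-PPARD mice, against 30.4, 18.3, 18.9, 23.7 and 20.1 CPM in WT mice. The genotypes did not overlap at either age, and the 55-week villin-PPARD libraries were all lower than those of 10 weeks. Parp14 (chromosome 16, 35832874 to 35871544, minus strand) stood at 233, 235, 190.1, 257 and 245 CPM in villin-PPARD mice of 10 weeks, against 42.6, 22.5, 22.1, 22.2 and 23 CPM in WT mice. At 55 weeks Parp14 stood at 208, 225, 195, 235 and 226 CPM in villin-PPARD mice, against 43.8, 28.3, 26.7, 32.5 and 28.5 CPM in WT mice. The Parp14 ranges of 10 and 55 weeks overlapped in villin-PPARD mice, unlike those of Parp12. At 25 weeks Parp12 averaged 219 ± 37.5 CPM in villin-PPARD and 22.6 ± 5.11 CPM in WT mice, and Parp14 263 ± 84.4 CPM in villin-PPARD and 26.6 ± 6.04 CPM in WT mice (SD, n = 4 each). The log2 differences between genotypes were 3.15 ± 0.19 (SE), 3.27 ± 0.21 and 2.35 ± 0.18 for Parp12 at 10, 25 and 55 weeks (edgeR adjusted p = 1.23e-13, 1.21e-12 and 9.30e-12). For Parp14 they were 3.13 ± 0.21 (SE), 3.30 ± 0.23 and 2.76 ± 0.20 (edgeR adjusted p = 2.10e-12, 1.15e-11 and 4.26e-12).

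**Figure D2:**
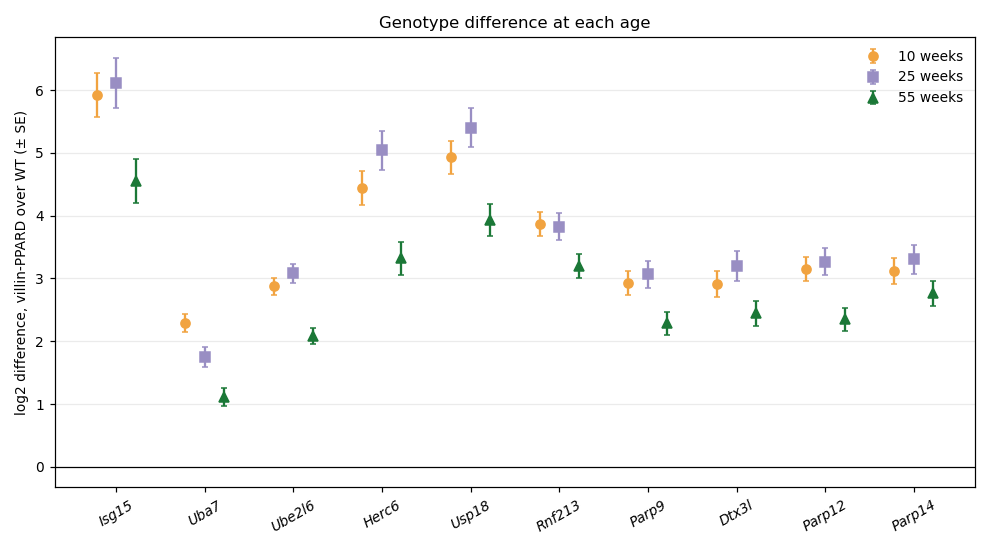
Log2 difference of villin-PPARD over WT mice (points) with its SE (bars) for each of the 10 genes at 10, 25 and 55 weeks, from the edgeR fit of all 28 libraries. All 30 values lie above 0, from 1.12 for Uba7 at 55 weeks to 6.11 for Isg15 at 25 weeks.

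Every genotype call among the 10 genes was kept in each alternative that was run, with other scalings, filters, tools and terms, within library groups and without each library in turn. The medians over the 10 genes within library groups were 3.01 in the first and 3.41 in the second at 10 weeks. Scaled by library size alone, all genes had a median log2 difference of 0.15 at 25 and 0.43 at 55 weeks, and the 10 genes one of 3.43 and 3.

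The libraries also differed between genotypes in other ways. Mitochondrial transcripts took 1.57% to 6.27% of counts in villin-PPARD and 4.81% to 20.4% in WT libraries. Summed markers of leukocytes in general (4 genes) ranged from 9.08 to 15.9 CPM in villin-PPARD and from 6.32 to 16.9 CPM in WT mice at 10 weeks, with 0 of 4 called by edgeR. At 25 weeks they ranged from 8.89 to 22.9 CPM in villin-PPARD and from 8.75 to 21.5 CPM in WT mice, again with 0 of 4 called. At 55 weeks they ranged from 26.1 to 62.9 CPM in villin-PPARD and from 18.2 to 21 CPM in WT mice, with 4 of 4 higher. Of 12 myeloid markers, 2, 3 and 11 were higher at 10, 25 and 55 weeks, and their sum ranged from 72 to 82.4 CPM in villin-PPARD and from 25.5 to 61.7 CPM in WT mice at 10 weeks. At 55 weeks the myeloid sum ranged from 222 to 395 CPM in villin-PPARD and from 76.1 to 83.6 CPM in WT mice. T and natural killer cell markers (5 tested of 11) and B and plasma cell markers (4 tested of 6) had 0 called at 10 and 25 weeks, and all tested ones were higher at 55 weeks, when B and plasma cell markers summed to 82.3 to 268 CPM in villin-PPARD and 19.5 to 30.5 CPM in WT mice. Of 4 markers of plasmacytoid dendritic cells 3 were tested, with 1, 1 and 2 higher and 1, 0 and 1 lower at 10, 25 and 55 weeks. Bst2, itself induced by interferon, was higher at each age (32.5-fold at 10 weeks), Ccr9 at 55 weeks (2.11-fold), and Tcf4 was lower at 10 and 55 weeks (log2 difference -0.31 and -1.07). Siglech, not tested, had at most 12 counts in a library. Endothelial markers summed to 66.3 to 87.7 CPM in villin-PPARD and 13.1 to 36.0 CPM in WT mice at 10 weeks, with 1 of 5 higher and a median log2 difference of 0.04. Their median log2 difference was -0.59 at 25 weeks, with 1 higher and 1 lower, and 0.49 at 55 weeks, with 2 higher and 1 lower. The part of these differences in the results on the 10 genes was not tested. In RNA from a mixture of cells, fewer cells of a type and less RNA per cell cannot be told apart.

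Per kilobase of exon, using the annotated exons of GENCODE M21, Isg15 was the most abundant of the 10 genes in villin-PPARD mice and not in WT mice. Its mean was 323, 305 and 91.5 CPM per kb in villin-PPARD mice at 10, 25 and 55 weeks, against 5.13, 4.35 and 3.82 CPM per kb in WT mice. Rnf213 came second in villin-PPARD mice, with 94.2, 80.1 and 55.5 CPM per kb, and Herc6 last in all 6 groups, with 3.94, 5.73 and 2.12 CPM per kb in villin-PPARD and 0.173, 0.170 and 0.212 CPM per kb in WT mice. At 10 weeks the ranges of Isg15 (228 to 378 CPM per kb) and Rnf213 (67.2 to 105) did not overlap in villin-PPARD mice, nor did those of Rnf213 and the third gene, Parp12 (48.5 to 65.8). Parp12 and Usp18 (41.1 to 65.3) overlapped. In WT mice the order of the upper genes was not resolved: Parp12, Rnf213, Uba7, Isg15 and Ube2l6 had means between 5.10 and 6.54 CPM per kb at 10 weeks, with overlapping ranges.

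Within villin-PPARD mice, 25 weeks of age could not be told from 10 weeks for these genes. The edgeR test called 0 of the 10, with 2 at an unadjusted p under 0.05, and 2.81% of all genes passed in either direction. The largest differences were 0.54 ± 0.22 for Herc6 and -0.42 ± 0.15 for Uba7 (log2, SE, edgeR adjusted p = 0.155 and 0.0969). DESeq2 called 0 and limma-voom 1, and single calls also appeared without villin-PPARD replicate 3 of 10 weeks (Uba7, adjusted p = 0.044) or of 25 weeks (Herc6, adjusted p = 0.0287).

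By 55 weeks the villin-PPARD levels of 7 of the 10 genes had fallen below those of 10 weeks: Isg15, Parp12, Ube2l6, Usp18, Uba7, Herc6 and Rnf213. The fall was largest for the modifier Isg15, with a log2 difference of -1.82 ± 0.28 (SE), or 0.283 of the 10-week level (edgeR adjusted p = 4.84e-06). The enzymes that activate, carry, attach and remove ISG15 fell by less: the log2 differences were -0.95 ± 0.14 for Uba7, -1.0 ± 0.12 for Ube2l6, -0.89 ± 0.21 for Herc6 and -0.98 ± 0.22 for Usp18 (SE, edgeR adjusted p = 1.51e-06, 2.78e-08, 0.00095 and 0.000373). Parp12 fell by 1.03 ± 0.17 and Rnf213 by 0.76 ± 0.17 on the log2 scale (SE, edgeR adjusted p = 1.03e-05 and 0.000422). Over all genes, 24.5% were lower at 55 than at 10 weeks in villin-PPARD mice, and 18.9% had all libraries of 55 weeks below all of 10 weeks, which held for 9 of the 10 genes.

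The other 3 genes did not pass in the edgeR fit. The log2 differences of 55 over 10 weeks were -0.41 ± 0.17 for Parp9, -0.39 ± 0.19 for Dtx3l and -0.09 ± 0.19 for Parp14 (SE, edgeR adjusted p = 0.0514, 0.0869 and 0.717), with 95% intervals of -0.75 to -0.07, -0.77 to -0.02 and -0.46 to 0.28. Scaled by library size alone these 3 turned to 0.0029, 0.025 and 0.33 and the Rnf213 call was lost (adjusted p = 0.0752), while the median of all genes moved to 0.44 and that of the 10 genes to -0.50. Within the second library group, which holds both ages, 9 of the 10 were lower, all but Parp14 at -0.21 (adjusted p = 0.279), and Isg15 differed by -1.93. Parp9 also passed without villin-PPARD replicate 3 of 10 weeks or replicate 2 of 55 weeks (adjusted p = 0.0331 and 0.0472) and with WT replicates 2 and 3 of 10 weeks as 1 sample (0.049). By other tools Parp9 passed with DESeq2 size factors, the DESeq2 Wald test and limma-voom (adjusted p = 0.0389, 0.034 and 0.00735), and Dtx3l with limma-voom (0.0148).

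From 25 to 55 weeks 9 of the 10 genes fell in villin-PPARD mice, all but Parp14, and 6 had all libraries of 55 weeks below all of 25 weeks. Of all genes 22.8% were lower in this comparison and 16.8% lay below without overlap. Isg15 differed by -1.74 ± 0.29, Herc6 by -1.43 ± 0.22, Ube2l6 by -1.0 ± 0.12 and Parp12 by -0.94 ± 0.18 (log2, SE, edgeR adjusted p = 2.14e-05, 7.31e-06, 1.01e-07 and 9.00e-05). The other 5 that passed lay between -0.84 for Usp18 and -0.52 for Uba7, and Parp14 stood at -0.28 ± 0.20 (adjusted p = 0.266). All 55-week libraries belong to the second library group and the villin-PPARD libraries of 25 weeks to the first, so these ages are compared across library groups. With a term for library group 4 of the 10 were lower, and scaled by library size alone also 4. Without villin-PPARD replicate 1 of 25 weeks 6 were lower, without replicate 2 there were 7, and without replicate 3, the lowest library of its group for 9 of the 10 genes, all 10 were.

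**Figure D3:**
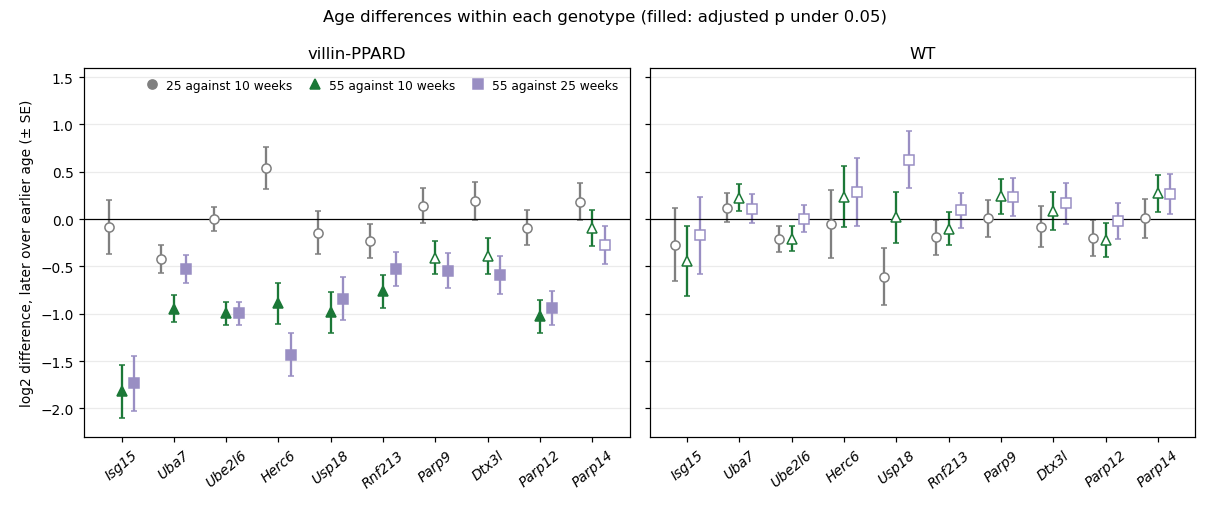
Log2 differences between ages (points) with SE (bars) for the 10 genes, in villin-PPARD mice (left) and WT mice (right), from the edgeR fit; filled points have an adjusted p under 0.05. In villin-PPARD mice Isg15 lies at -1.82 for 55 over 10 weeks and Parp14 at -0.09, which turns to 0.33 when scaled by library size alone, and every WT point is open.

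In WT mice no age comparison was called by edgeR for any of the 10 genes, with 0, 0 and 1 at an unadjusted p under 0.05 for 25 over 10, 55 over 10 and 55 over 25 weeks. DESeq2 and limma-voom also called 0 in each. Of all genes, 0.0126% were called in either direction for 25 over 10 weeks, 12.7% for 55 over 10 weeks and 1.10% for 55 over 25 weeks. The widest log2 differences were -0.61 ± 0.30 and 0.63 ± 0.30 for Usp18, at 25 over 10 and 55 over 25 weeks (SE, edgeR adjusted p = 1 and 0.332).

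The genotype difference itself was then compared between ages. From 10 to 25 weeks it changed in 0 of the 10 genes (edgeR, 1 at an unadjusted p under 0.05, 0 by DESeq2 and by limma-voom), with 0.00632% of all genes called in either direction. From 10 to 55 weeks it became smaller in 8 of the 10, all but Dtx3l and Parp14, against 18.0% of all genes. The change was -1.38 ± 0.46 for Isg15, -1.18 ± 0.20 for Uba7, -1.13 ± 0.39 for Herc6 and -1.0 ± 0.34 for Usp18 (log2, SE, edgeR adjusted p = 0.0208, 3.08e-05, 0.0243 and 0.0231). For Dtx3l it was -0.48 ± 0.28 and for Parp14 -0.36 ± 0.27 (adjusted p = 0.191 and 0.32). From 25 to 55 weeks it became smaller in 7 of the 10, against 14.6% of all genes, most for Herc6 at -1.72 ± 0.42 and Isg15 at -1.56 ± 0.50 (adjusted p = 0.00291 and 0.0201).

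These changes rested on single libraries more than the genotype differences did. Ube2l6, Uba7 and Parp12 passed from 10 to 55 weeks without each of the 20 libraries in turn, while Rnf213 did in 10 and Parp9 in 8 of the 20. Without WT replicate 1 of 55 weeks, the highest library of its group for all 10 genes, 3 of the 10 passed for 10 to 55 and 4 for 25 to 55 weeks, and Isg15 was then at -1.11 and -1.30 (adjusted p = 0.0769 and 0.0661). Without WT replicate 1 of 25 weeks Isg15 was at -1.34 for 25 to 55 weeks (adjusted p = 0.0542). With WT replicates 2 and 3 of 10 weeks as 1 sample, 6 passed for 10 to 55 weeks. Without WT replicate 1 of 10 weeks, the highest of its group for all 10 genes, all 10 passed from 10 to 55 weeks and Isg15 was at -1.96. Without villin-PPARD replicate 3 of 25 weeks all 10 passed from 25 to 55 weeks. Within the second library group all 10 passed from 10 to 55 weeks, Isg15 at -2.48, Usp18 at -1.66 and Herc6 at -1.89. That group holds 2 mice of each genotype at 10 weeks, and WT replicate 1 of 10 weeks is not among them. Scaled by library size alone, 2 of the 10 passed from 10 to 55 weeks.

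Ratios of 2 genes within a library do not depend on scaling. In villin-PPARD mice those of Isg15 to Parp14, Isg15 to Usp18 and Parp12 to Parp14 were lower at 55 than at 10 weeks. They come from the same counts as the age differences above, so they restate those differences and are not a separate test. The ratio of Isg15 to Parp14 reads had a median of 1.02, 0.863 and 0.291 in villin-PPARD mice at 10, 25 and 55 weeks, against 0.141, 0.136 and 0.0992 in WT mice. In villin-PPARD mice it ranged from 0.210 to 0.450 at 55 weeks and from 0.907 to 1.23 at 10 weeks, without overlap. The ratio of Isg15 to Usp18 had a median of 0.893 at 55 weeks and 1.63 at 10 weeks in villin-PPARD mice, also without overlap. In WT mice its median was 0.604 at 55 weeks and 0.778 at 10 weeks, with overlapping ranges. The ratio of Parp12 to Parp14 ranged from 0.440 to 0.607 in villin-PPARD mice of 55 weeks and from 0.917 to 1.13 in those of 10 weeks. In WT mice it was also lower at 55 weeks, at 0.645 to 0.729 against 0.871 to 1.09 at 10 weeks, and the 55-week genotypes did not overlap.

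**Figure D4:**
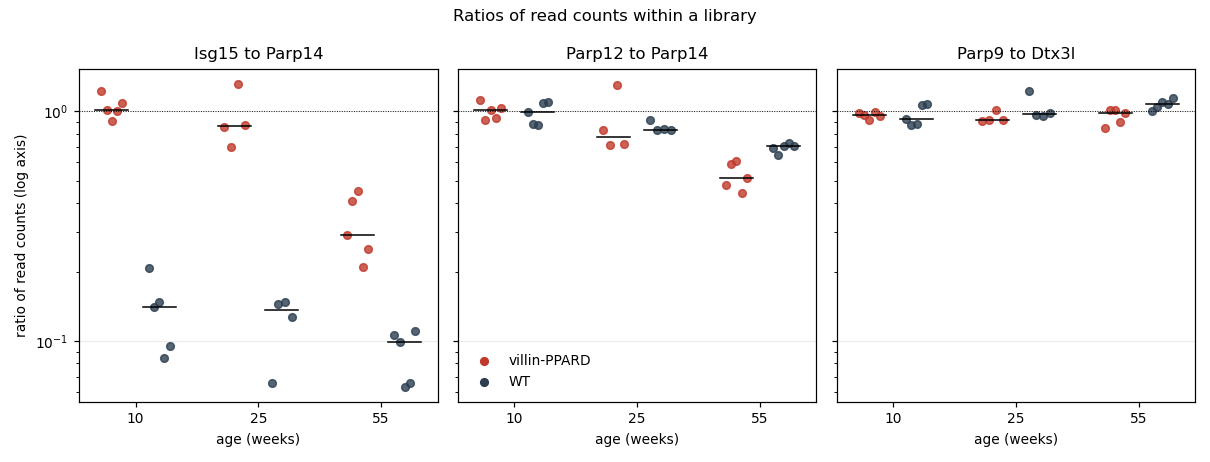
Ratio of read counts of 2 genes within each library (log axis), by age in weeks, with villin-PPARD (red) left of WT (dark); a point is 1 mouse, a bar the group median and the dotted line parity. Isg15 to Parp14 has a median of 0.291 in villin-PPARD mice of 55 weeks, below 1.02 at 10 weeks, while Parp9 to Dtx3l lies between 0.851 and 1.22 in all libraries.

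The other genes of the pathway were read from lists of relatives with the same biochemical roles. Over all genes, 17.9%, 21% and 31.7% were higher and 16.2%, 18.6% and 27.6% lower in villin-PPARD mice at 10, 25 and 55 weeks, and the counts of these lists stand beside those shares. Of 11 other ubiquitin-like modifiers, 4, 5 and 5 were higher and 0, 0 and 1 lower in villin-PPARD mice at 10, 25 and 55 weeks, with medians of 0.07, 0.19 and 0.26 (log2). The polyubiquitin gene Ubb was among them, 1.78-fold higher at 10 weeks (edgeR adjusted p = 4.31e-05), and Ufm1, another modifier, was lower at 55 weeks at -0.69 ± 0.10 (log2, SE). Of 9 other activating enzymes, 1, 5 and 6 were higher at 10, 25 and 55 weeks. The SUMO-activating pair Sae1 and Uba2 was higher at 55 weeks, by 0.81 and 0.49 on the log2 scale, against 1.12 for Uba7 at that age.

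Among 10 other conjugating enzymes and ligases linked to ISG15 and HERC relatives, 4, 3 and 5 were higher and 1 lower at each age. Trim25, an interferon-induced ligase, averaged 402 ± 37.6 CPM in villin-PPARD and 158 ± 33.9 CPM in WT mice at 10 weeks (SD, n = 5 each), and its log2 differences were 1.35, 1.38 and 0.94 at 10, 25 and 55 weeks (edgeR adjusted p = 6.84e-09, 4.65e-08 and 7.10e-07). The HERC relative Herc3 went the other way, with -0.61, -0.52 and -1.44, and Herc1 was higher at 10 and 55 weeks, by 0.29 and 0.59. Of 5 tested of 6 other proteases reported to act on ISG15, 0, 1 and 2 were higher and 1, 2 and 1 lower. Usp2 was lower at each age, and at 55 weeks averaged 0.371 ± 0.128 CPM in villin-PPARD and 10.7 ± 2.33 CPM in WT mice (SD, n = 5 each, log2 difference -4.78 ± 0.25, edgeR adjusted p = 2.20e-15). Usp14 was higher at 25 and 55 weeks, by 0.72 and 0.61 on the log2 scale, and Usp5 at 55 weeks, by 0.33.

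Of 13 other PARP family genes, 6, 5 and 9 were higher and 1 lower at 10, 25 and 55 weeks, with medians of 0.27, 0.32 and 0.56 (log2), below the smallest value of Parp9, Parp12 and Parp14 at 2.28. The genes on both sides were chosen with earlier results of these data known, so this order is not a test. Parp10, which also transfers single ADP-ribose units, averaged 62.4 ± 9.13 CPM in villin-PPARD and 16.8 ± 1.77 CPM in WT mice at 10 weeks (SD, n = 5 each). Its log2 differences were 1.89, 1.59 and 1.10 at 10, 25 and 55 weeks, and those of Parp11 were 1.30, 2.06 and 1.85 (edgeR adjusted p of 2.27e-05 or lower). Parp1, the DNA damage sensor, was not called at 10 and 25 weeks, at -0.17 and -0.03, and was higher at 55 weeks, at 0.77 ± 0.08 (SE). Of 9 tested genes that remove or bind ADP-ribose, 2, 1 and 1 were higher and 2, 2 and 3 lower. Macrod1, a mitochondrial macrodomain hydrolase, was lower at each age, with -1.02, -1.35 and -2.57, and Parg, which cuts poly(ADP-ribose) chains, was higher, with 0.39, 0.52 and 0.33. Adprhl1 averaged 0.251 CPM in villin-PPARD and 0.627 CPM in WT mice at 10 weeks, and had no reads in any villin-PPARD library of 55 weeks. Of 4 other Deltex genes, 1, 1 and 2 were higher and 0, 1 and 1 lower. Dtx4 was higher at each age, by 0.84, 0.82 and 0.39, and Dtx3 lower at 25 and 55 weeks, at -0.91 and -1.23. Dtx1 was higher at 55 weeks, by 1.39 ± 0.48 (log2, SE), but had few reads. It averaged 0.731 ± 0.372 CPM in villin-PPARD and 0.275 ± 0.091 CPM in WT mice at that age (SD, n = 5 each).

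**Figure D5:**
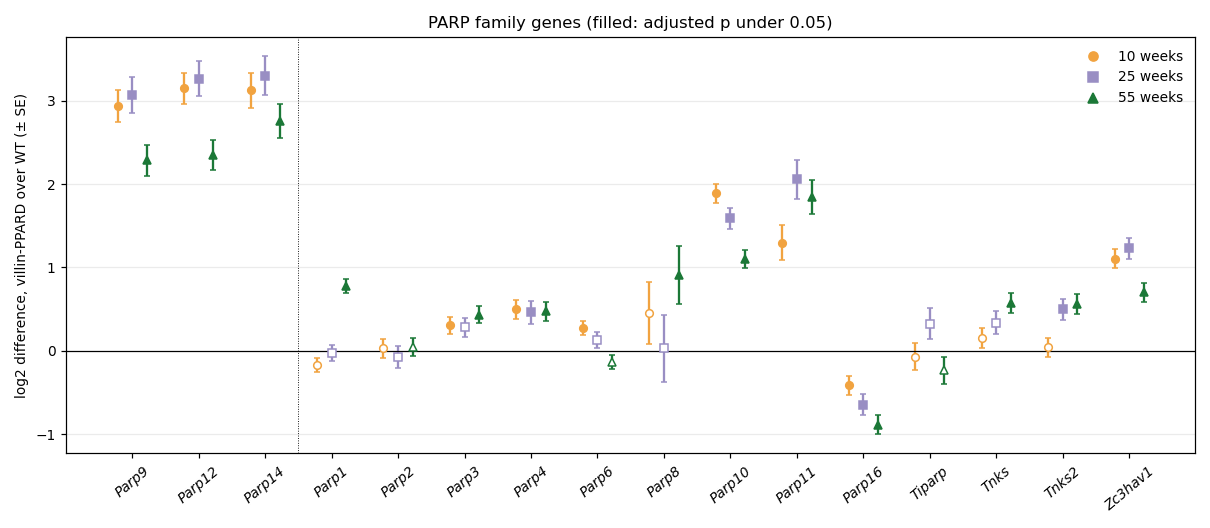
Log2 difference of villin-PPARD over WT mice (points) with SE (bars) for Parp9, Parp12 and Parp14 (left of the dotted line) and 13 other PARP family genes (right) at 10, 25 and 55 weeks, from the edgeR fit; filled points have an adjusted p under 0.05. The 3 genes on the left lie between 2.28 and 3.30, above every other value, the next being Parp11 at 2.06. Both sets were chosen with earlier results of these data known.

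Of 16 genes of interferon signalling, 12, 13 and 11 were higher and 0 lower at 10, 25 and 55 weeks, against 17.9%, 21% and 31.7% of all genes higher, with medians of 0.61, 0.62 and 0.47 (log2). Stat2, a part of the factor that binds the interferon-stimulated response element, averaged 295 ± 40.7 CPM in villin-PPARD and 40.01 ± 6.68 CPM in WT mice at 10 weeks (SD, n = 5 each), and was 7.35-fold, 7.45-fold and 3.66-fold higher at 10, 25 and 55 weeks (edgeR adjusted p = 1.96e-16, 4.08e-15 and 5.25e-13). Irf9, its DNA-binding partner, was 3.82-fold, 4.06-fold and 2.33-fold higher, and Irf7, which amplifies interferon production, 16.0-fold, 21-fold and 10.1-fold. Of 10 genes for interferons themselves only Ifne, an epithelial type I interferon, had enough reads for a test, and it was not called at 10 and 25 weeks (log2 difference 0.35 and -0.01) and 2.24-fold higher at 55 weeks (edgeR adjusted p = 0.000315). Ifnb1, Ifnl2 and Ifna1, Ifna2, Ifna4 and Ifna5 had 0 counts in all 28 libraries, which allows up to 3 counts in a library, or 0.273 CPM before TMM scaling in the library with the fewest counts. Ifnk and Ifnl3 had 1 count each in all libraries together, and Ifng 39. These floors cover counting error only.

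Over the 28 libraries, the genes with patterns most like that of Isg15 were Ifit1, Apol9a, Bst2, Apol9b and Sp100, among 12900 others with a mean of at least 1 CPM. Their root mean square differences from Isg15 on the centred log2 CPM scale were 0.37, 0.53, 0.53, 0.54 and 0.54. The nearest to Parp14 were Irgm2, Xaf1, H2-K1, Trim14 and Tap1, at 0.29, 0.35, 0.35, 0.36 and 0.37. All these patterns share the genotype difference and the library sizes. Among the 10 genes, Parp14 was nearest to Dtx3l, at 0.19, and Ube2l6 to Parp12, at 0.22, while Isg15 and Uba7 were the farthest apart, at 1.93.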

How the data were processed

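Per the labels' protocols, polyadenylated RNA was sequenced as paired 75-base reads with a TruSeq v2 kit, which does not mark strand. Per the submitters' processing notes the authors used TopHat2 (2.0.14), HTSeq (0.6.1), DESeq2 and the mm10 build, and they deposited raw read counts per gene symbol; the sources used here do not give the annotation or the strand setting. Here the counts of 28 libraries were filtered with filterByExpr by group (15812 genes left), scaled with TMM and fitted once with a mean per group by edgeR (4.0.16), with a two-sided robust quasi-likelihood F test in 12 contrasts and Benjamini-Hochberg adjustment over all genes; calls have an adjusted p under 0.05. SEs are the log2 difference divided by the root of F. The edgeR test of villin-PPARD over WT mice at 10 weeks was checked on simulated counts in which few genes changed. The other contrasts were not checked in this way. Replicates are separate mice, per the labels; WT replicates 2 and 3 of 10 weeks differed by 4.26 chi-square per degree of freedom, other pairs by at least 15.1. Whether that pair shares a source was not tested. Alternatives used DESeq2 (1.42.0) size factors and Wald tests, limma (3.58.1) voom, library size alone, no filter, a replicate block, a library-group term, fewer groups and left-out libraries (WT replicate 3 of 25 weeks, tagged as a replacement, has a library-group level of its own and drops out of library-group fits); fits within library groups for ages, at 25 and at 55 weeks, and all alternatives for WT ages, were chosen after seeing the data. The 10 genes and the lists were chosen with earlier results of these data known. Named beside the 10 are the 3 genes per list with the lowest adjusted p in any genotype comparison and the 5 genes nearest to Isg15 and Parp14 (root mean square of centred log2 CPM with 0.5 added). Some genes that this rule names are not reported here. Marker lists are given as counts or sums, except those of neck, fibroblast and smooth muscle cells, which are not reported here.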

Additional observations from a re-analysis of the deposited data

Results flagged for a closer look

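Of the 60 sets of values, 1 per gene and group, 11 held a library far from the others of its group by Dixon's criterion, which chance gives in about 1 in 20 sets, and the genes share their libraries. WT replicate 1 of 10 weeks accounted for 8: it stood at 8.87 CPM for Isg15, 9.95 for Usp18, 14.6 for Ube2l6, 167 for Rnf213, 30.9 for Parp9, 33.4 for Dtx3l, 42.2 for Parp12 and 42.6 for Parp14, each time the highest of its group and below every villin-PPARD library. WT replicate 1 of 55 weeks was high for Parp9, at 30.9 CPM, and for Dtx3l, at 30.6 CPM. Villin-PPARD replicate 3 of 10 weeks was low for Rnf213, at 1134 CPM.

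The genotype difference differed between ages by the interaction test. From 10 to 55 weeks it became smaller by log2 changes of -1.38 for Isg15, -1.0 for Usp18, -1.13 for Herc6, -0.79 for Ube2l6, -1.18 for Uba7, -0.66 for Rnf213, -0.65 for Parp9 and -0.80 for Parp12. From 25 to 55 weeks the changes were -1.56 for Isg15, -1.47 for Usp18, -1.72 for Herc6, -1.0 for Ube2l6, -0.63 for Uba7, -0.78 for Parp9 and -0.92 for Parp12. These 15 results share the villin-PPARD and WT libraries of 55 weeks. At that age parietal, chief and endocrine markers were far lower and leukocyte markers higher in villin-PPARD mice. The endocrine sum ranged from 39.1 to 135 CPM in villin-PPARD and from 673 to 1321 CPM in WT mice. Pit cell markers summed to 34039 to 68620 CPM in villin-PPARD and 134951 to 187960 CPM in WT mice, with 4 of 5 lower and 1 higher. The part of these markers in the changes was not tested.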

How the results depend on the processing

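The genotype calls of the 10 genes were the same in all alternatives, 210, 180 and 200 values at 10, 25 and 55 weeks. For 55 over 10 weeks in villin-PPARD mice 177 of 190 values kept direction and call, and for the change of the genotype difference from 10 to 55 weeks 247 of 290. Without each library in turn, the calls for 25 over 10 weeks in villin-PPARD mice ranged from 0 to 1 in each direction, the changes of the genotype difference from 3 to 10 (10 to 55 weeks) and from 4 to 10 (25 to 55 weeks); why was not tested. With library size alone 4 genes were lower at 55 than 25 weeks and 2 differed between 10 and 55 weeks in the genotype difference, without a filter 4 did, and limma-voom called 1 gene higher at 25 than 10 weeks. A library-group term left 4 lower at 55 than 25 weeks.

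Directions turned mostly for values near 0. For villin-PPARD mice at 25 over 10 weeks, Ube2l6 (0.0012 in the fit reported) was -0.016 with DESeq2 size factors and by DESeq2, -0.023 without a filter, -0.011 by limma-voom, -0.024 with a replicate block and -0.032 with a library-group term, and from -0.079 to 0.045 without each library; Isg15 was 0.0073 with library size alone and from -0.19 to 0.00061 without each library. With library size alone 55 over 10 weeks gave 0.0029 for Parp9, 0.025 for Dtx3l and 0.33 for Parp14, 55 over 25 weeks 0.067 for Parp14, and the change of the genotype difference from 10 to 55 weeks 0.0029 for Parp14. For that change from 10 to 25 weeks, Rnf213 was 0.078 with library size alone, 0.029 with a library-group term, 0.27 within the first library group and from -0.24 to 0.12 without each library; limma-voom gave -0.26 for Isg15, -0.011 for Parp9 and -0.081 for Parp12, and leaving out each library gave -0.40 to 0.57 for Isg15, -0.12 to 0.29 for Parp9, -0.13 to 0.28 for Parp12 and -0.064 to 0.38 for Parp14. With library size alone the share of all calls that were higher was 61.7%, 74.5% and 78.9% at 10, 25 and 55 weeks, against 52.5%, 53% and 53.4%.

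Same-numbered mice of the 2 genotypes did not deviate together (correlations from -0.494 to 0.240), and with the replicate block the calls of the 10 genes stayed at 7, 9, 8 and 7 for 55 over 10 weeks, 55 over 25 weeks and the changes of the genotype difference to 55 weeks. Of the 10 interferon genes 9 had too few reads for a test, and whether depth or absence of transcripts sets this was not tested.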
